A study of Mus musculus with 27 samples.

Results

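The genes described here are 10 genes of the red blood cell lineage: the globin genes *Hba-a1*, *Hba-x*, *Hbb-y*, *Hbb-bh1* and *Hbb-b1*, the transcription factor genes *Gata1* and *Klf1*, the haem synthesis gene *Alas2*, the erythropoietin receptor gene *Epor* and the red cell anion exchanger gene *Slc4a1*. They were chosen by name, as genes of blood cells, in which Cre recombinase made from the *Tnnt2* promoter should leave *Kmt2d* intact. They are 10 of 22225 protein-coding gene names in the GENCODE vM1 annotation of mouse assembly mm9 (NCBIM37). A region was assigned to a gene when it touched the gene body or lay within 5 kb of one of its transcription start sites (TSS), and the 10 genes took 25 of 358833 regions.

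The regions came from chromatin immunoprecipitation and sequencing (ChIP-Seq) of histone H3 methylated at lysine 4 in mouse hearts of strain C57BL/6 at embryonic day E11.5. Control hearts were *Tnnt2::Cre;Kmt2d fl/+;mTmG/+* and mutant hearts *Tnnt2::Cre;Kmt2d fl/fl;mTmG/+*, so that both genotypes carried Cre, at least 1 floxed *Kmt2d* allele and the Cre reporter mTmG. Each genotype was represented by 3 pools of 30 hearts, and from every pool came 1 input and 1 library for each of H3K4me1, H3K4me2 and H3K4me3, which gave 24 of the 27 libraries of the series. The other 3 libraries, KMT2D ChIP-Exo from cardiomyocytes, were not used here. The authors merged the peaks of the 3 marks into 1 list of regions and listed those with lower H3K4me1 and those with lower H3K4me2 in mutant hearts. The lists hold coordinates and no read counts, scores or replicate values. The depth behind a region is therefore unknown, no error between pools can be given, and a decreased region is a region called by the authors. Wide regions were called more often, and a region outside a decreased list may still have changed.

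Primitive red cells arise in the yolk sac and fill the embryonic circulation, including the chambers of the heart, at this stage. They carry embryonic haemoglobins built from *Hba-x* and *Hba-a1* type alpha chains and *Hbb-y* and *Hbb-bh1* type beta chains, whereas *Hbb-b1* encodes a beta chain of adult haemoglobin. GATA1 and KLF1 are the factors that switch on the red cell genes, globins included, through GATA and CACCC motifs. In whole hearts, fewer cells of a type and less of a mark per cell cannot be told apart.

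To show what the sequence at these genes looks like, and which parts of it carry methylated regions, the stretches just upstream of 8 of the genes are printed here, 5′ to 3′ on the strand of the gene, in mm9 coordinates. For *Hba-a1* the stretch is the 125 bases between the end of its H3K4me2-decreased region and the annotated start, which lie in no region. For the other 7 it is the part, outside annotated exons, of the 150 bases before a start site, and all of it lies in a region. That start is the one of the RefSeq promoter table (GRCm38.p6), placed in mm9 by an exact match, or, for *Hbb-bh1* and *Slc4a1*, a GENCODE start. Capitals mark the letters GATAA on either strand, the letters CACCC on either strand, the letters CCAAT on either strand, and on the strand of the gene only the letters ATAAA and, overlapping with them, the letters TATAA.
Hba-a1 (chr11:32183386-32183510, + strand): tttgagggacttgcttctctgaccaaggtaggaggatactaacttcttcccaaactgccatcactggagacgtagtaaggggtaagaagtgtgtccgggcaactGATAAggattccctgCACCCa
Hbb-y (chr7:111001755-111001871, - strand): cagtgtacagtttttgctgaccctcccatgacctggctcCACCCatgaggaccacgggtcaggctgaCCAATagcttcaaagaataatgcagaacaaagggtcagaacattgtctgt
Hbb-bh1 (chr7:110991679-110991828, - strand): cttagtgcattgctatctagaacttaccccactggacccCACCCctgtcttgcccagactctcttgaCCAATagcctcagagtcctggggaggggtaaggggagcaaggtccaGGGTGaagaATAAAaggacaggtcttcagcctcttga
Gata1 (chrX:7545037-7545186, - strand): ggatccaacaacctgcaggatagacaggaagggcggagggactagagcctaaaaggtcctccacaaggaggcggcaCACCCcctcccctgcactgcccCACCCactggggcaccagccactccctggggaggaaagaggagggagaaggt
Klf1 (chr8:87425731-87425826, + strand): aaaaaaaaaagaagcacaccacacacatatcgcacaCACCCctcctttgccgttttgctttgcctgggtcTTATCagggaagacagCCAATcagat
Alas2 (chrX:146981810-146981917, + strand): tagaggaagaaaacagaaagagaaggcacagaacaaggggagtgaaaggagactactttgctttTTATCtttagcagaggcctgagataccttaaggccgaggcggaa
Epor (chr9:21768021-21768170, - strand): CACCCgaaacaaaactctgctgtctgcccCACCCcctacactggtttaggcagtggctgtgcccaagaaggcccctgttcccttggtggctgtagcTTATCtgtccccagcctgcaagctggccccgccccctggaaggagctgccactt
Slc4a1 (chr11:102226595-102226744, - strand): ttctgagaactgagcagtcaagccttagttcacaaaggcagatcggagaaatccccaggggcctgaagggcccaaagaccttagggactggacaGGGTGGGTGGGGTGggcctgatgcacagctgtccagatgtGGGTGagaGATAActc

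The motifs were counted over the full 150 bases before the start, of which the printed stretches show only a part, and for *Hba-a1* show the bases further upstream. CACCC or its complement stood before all 10 genes, against 37.4% of 32851 RefSeq promoters of the same length. GATAA or its complement stood before 5 of the 10 (*Hba-x*, *Klf1*, *Alas2*, *Epor* and *Slc4a1*), against 13.3% of all promoters. CCAAT or its complement also stood before 5 (*Hba-a1*, *Hbb-y*, *Hbb-bh1*, *Hbb-b1* and *Klf1*), against 24.5%. Either of the 2 words of a TATA box, which can overlap and were searched in the direction of transcription only, stood before the 5 globin genes and none of the other 5, against 19.2% of all promoters. In those 5 globin genes the match began 27 to 29 bases before the start. A match is a run of letters and not evidence of a bound factor. The first annotated coding starts, which can differ from the starts used for the motifs, were poor in CpG. Within 500 bp on either side, the ratio of observed to expected CpG ran from 0.0653 at *Hba-x* to 0.306 at *Gata1*. The median was 0.555 over 22219 protein-coding genes, and all 10 lay below it. For *Gata1* the start used for CpG, at 7555197, lay in no region, and the start used for the motifs, at 7545036, lies 10161 bp downstream of it.

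Several of the 10 genes carried wide regions. The 25 regions had a median width of 1300 bp, against 320 bp for all merged regions, and 10 of the 25 (40%) were at least 4000 bp wide, against 3.90% of all merged regions. The 25 regions were picked for lying at genes, whereas the merged regions include those far from genes, so this background is not like for like. Together the 25 were 105680 bp wide, and 8 of them were narrower than 200 bp. A TSS lay in a region for 9 of the 10 genes, against 70.6% of all protein-coding genes. The widest region holding a TSS had a median width of 6380 bp over these 9 genes and 3710 bp over all genes. It ran from 620 bp at *Hbb-b1*, the 2.39th percentile of all such genes, to 23160 bp at *Hba-x*, the 99.2nd. *Gata1* and *Hbb-bh1* were near the middle, at the 56.2nd and 57.0th percentiles.

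**Figure D1:**
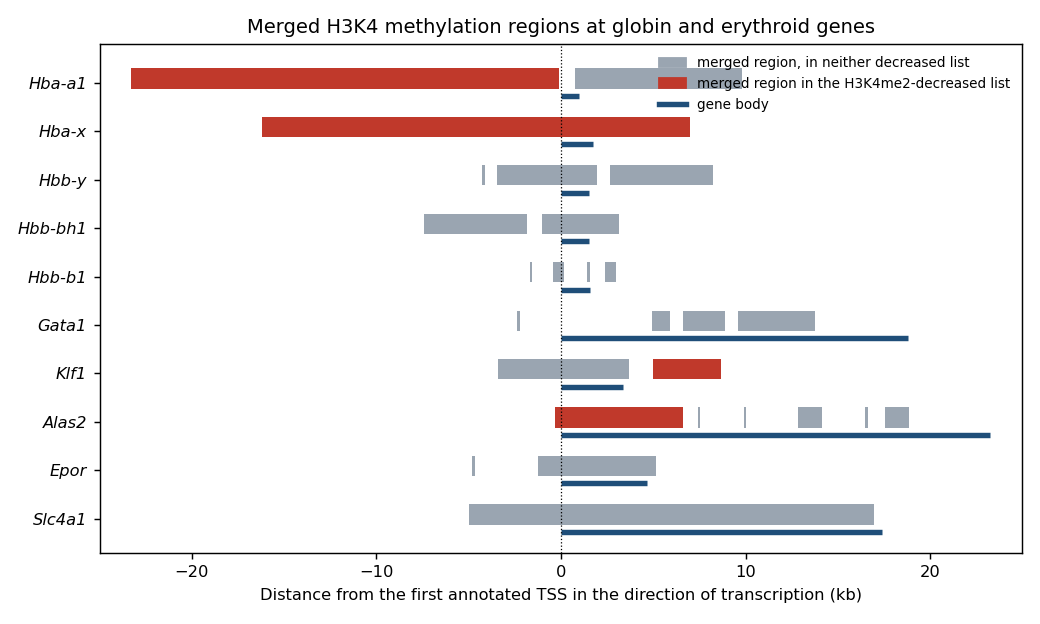
Merged H3K4 methylation regions (boxes) and gene bodies (blue lines) at the 10 genes, by distance in kb from the first annotated TSS in the direction of transcription. Red boxes are in the H3K4me2-decreased list, namely the 23160 bp region at *Hba-x* that ends before *Hba-a1*, the 3700 bp region downstream of *Klf1* and the 6980 bp region over the start of *Alas2*; grey boxes are in neither decreased list, and boxes under 120 bp are drawn at 120 bp.

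None of the 25 regions was in the H3K4me1-decreased list (95% Wilson interval 0% to 13.3%, with regions treated as independent), against 0.761% of all merged regions. In the H3K4me2-decreased list were 3 of the 25, or 12% (4.17% to 30.0%), against 1.87% of all merged regions. Among regions of at least 4000 bp the background was higher, 4.2% for H3K4me1 and 18.7% for H3K4me2, and the genes had 0 of 10 and 2 of 10 (20%, 5.67% to 51.0%). Above this limit the H3K4me2 share was thus close to that of all regions so wide, with a broad interval. Widths above the limit were not matched, and that background does not ask whether a region holds a TSS. By gene, 4 of the 10 had an H3K4me2-decreased region, against 28.7% of 19894 protein-coding genes with any region, and none had an H3K4me1-decreased region, against 7.11%. A TSS lay in an H3K4me2-decreased region for 2 of the 9 genes with a TSS in a region, against 29.2% of 15680 genes. For H3K4me1 the count was 0 of 9, against 1.29%. Of the 8 genes whose TSS region was at least 4000 bp wide, the same 2 were called for H3K4me2 and none for H3K4me1, against 39.4% and 2.09% of 7188 genes.

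*Hba-x*, which encodes the embryonic zeta chain (chr11:32176400-32178116, + strand), lay whole inside the widest of the regions. This region spanned chr11:32160226-32183385, 23160 bp, from 16.2 kb upstream of *Hba-x* to 6.99 kb downstream of its start, and it was in the H3K4me2-decreased list. Its width put *Hba-x* at the 99.2nd percentile of genes with a TSS in a region. It also held a TSS of *Nprl3*, a gene transcribed away from the globin genes whose introns are known to hold the alpha-globin enhancers. The called region overlapped only part of *Nprl3*, and a region of 24520 bp further upstream in that gene was in neither list. The positions of the enhancers were not compared with the regions. Which of the genes the call belongs to cannot be told apart from coordinates.

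*Hba-a1* (chr11:32183511-32184465, + strand), which encodes the alpha chain of adult haemoglobin and is also used in embryonic red cells, was the only one of the 10 genes with no TSS in a region. Of its 2 regions, the H3K4me2-decreased region it shares with *Hba-x* ended 126 bp before its first TSS, and a second region of 9040 bp, in neither decreased list, began 755 bp after it. The 880 bp between them held the printed stretch and the start of the gene, and regions covered 20.9% of its body. Beyond the gap it was well covered. Of the 5 kb on both sides of its best-covered start site 91.2% lay in regions, at the 96.5th percentile of all genes by the same measure.

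The gap over *Hba-a1* coincided with sequence that is not unique. Of the 32-base words of the *Hba-a1* body 96.5% had another copy in the assembly, and 80.5% of the other copies lay in *Hba-a2*, a second alpha-globin gene in the same cluster. The gap over *Hba-a2* was also 880 bp, and every word of both gaps was repeated. The 125 bases printed for *Hba-a1* had 1 further exact copy on the chromosome, at chr11:32196203-32196327, upstream of *Hba-a2*. Over the span of the alpha-globin genes, 20.2% of words inside regions and 73.4% outside regions were repeated, and with 50 kb added on each side 7.88% and 10.6%. Whether reads in repeated sequence were kept is not given in the sources used here, and its part in the gaps was not tested.

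The 3 beta-like globin genes had narrower regions than *Hba-x*, and none of their 8 regions was in a decreased list. *Hbb-y* (chr7:111000259-111001754, - strand), which encodes an embryonic beta-like chain, lay whole in a region of 5460 bp, at the 71.6th percentile of TSS regions. Its other 2 regions were 5600 bp and 160 bp wide. *Hbb-bh1* (chr7:110990150-110991678, - strand), which encodes the second embryonic chain, lay whole in a region of 4180 bp, at the 57.0th percentile, and shared the 5600 bp region with *Hbb-y*. The first 5 kb on both sides of the *Hbb-y* start were 79.9% covered by regions, and those of the best-covered *Hbb-bh1* start 73.3%.

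*Hbb-b1* (chr7:110975048-110976610, - strand), the adult gene, carried 4 narrow regions of 580, 160, 620 and 100 bp. The 620 bp region held its TSS, at the 2.39th percentile, and regions covered 21.9% of its body. Of the 5 kb on both sides of its best-covered start site 14.6% lay in regions, against a median of 35.0% over all genes. By this measure the adult beta-globin gene was the least covered of the 10 genes. Of its words 70.0% were repeated, all of the other copies lying in *Hbb-b2*, whereas no word of *Hbb-y* or *Hbb-bh1* was repeated. The 1220 bp without a region inside *Hbb-b1* consisted of repeated words to 88.0%. Around the gene, the gaps of 840, 1160, 4120 and 9820 bp did so to 0%, 0.948%, 5.80% and 60.3%. The part of repeated sequence in the low coverage was not tested.

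With 50 kb added on each side, the alpha-globin cluster (chr11:32126400-32250873) held 25 regions that covered 65.2% of it, and the beta-globin cluster (chr7:110911038-111051754) held 22 that covered 32.6%. In the alpha-globin cluster 1 region, the one at *Hba-x*, was in the H3K4me2-decreased list and none in the H3K4me1-decreased list. The widest region there, 24520 bp inside *Nprl3* at 41.3 to 16.8 kb upstream of *Hba-x*, was in neither list. In the beta-globin cluster none of the 22 regions was in either list. At the shares of all merged regions, 1.87% for H3K4me2 and 0.761% for H3K4me1, fewer than 1 call would fall in a cluster of this many regions. Among regions of at least 4000 bp, which both clusters held, the shares were higher, 18.7% and 4.2%. The counts do not set the clusters apart. The widest region of the beta-globin cluster, 14320 bp, lay 5312 bp upstream of *Hbb-y*, on the side where the beta-globin locus control region is known to lie. In this cluster 12 of the 22 regions were narrower than 200 bp.

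The clusters had different neighbours. The flanks of the alpha-globin cluster held *Nprl3*, *Mpg* and *Sh3pxd2b*, each with a TSS in a region, and those of the beta-globin cluster held the olfactory receptor genes *Olfr64*, *Olfr66*, *Olfr67*, *Olfr68* and *Olfr69*, none with a TSS in a region. Among regions of at least 4000 bp, those that held the TSS of a single protein-coding gene were in the H3K4me2-decreased list in 32.6% of cases and those that held the TSS of 2 or more in 42.1%. The nearest H3K4me2-decreased region to the beta-globin genes, of 1180 bp at *Trim34a*, was 391 kb from *Hbb-y* and 416 kb from *Hbb-b1*. The nearest H3K4me1-decreased region was 1654 kb from *Hbb-y* and, on the alpha side, 390.2 kb from *Hba-x*, at *Cpeb4*.

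**Figure D2:**
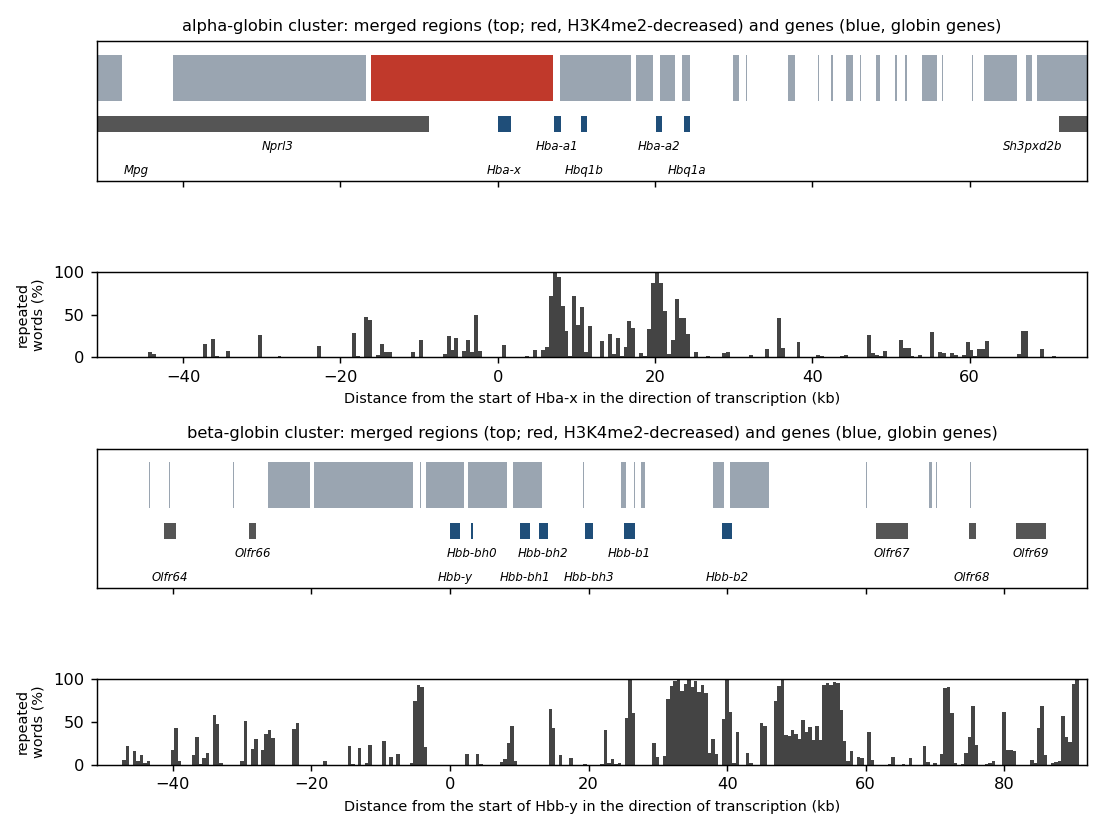
The alpha-globin and beta-globin clusters with 50 kb on each side, by distance in kb from the start of *Hba-x* or *Hbb-y* in the direction of transcription. Boxes in the upper panels are merged regions (red, H3K4me2-decreased) and genes (blue, globin genes), and bars in the lower panels are the percentage of 32-base words in each 500 bp with a second copy elsewhere in mm9; the single red region is at *Hba-x*, and the peaks of repeated words at *Hba-a1* and *Hba-a2* stand at the gaps between regions.

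*Gata1* (chrX:7536386-7555197, - strand), which encodes the factor required for red cell maturation, had 4 regions of 4140, 2300, 960 and 160 bp, none in a decreased list. Its first annotated TSS lay in no region and was 2209 bp from the nearest. The 4140 bp region instead held the TSS at 7545036 inside the gene, which is the start RefSeq gives, and put *Gata1* at the 56.2nd percentile. The nearest H3K4me2-decreased region was 77.3 kb away, over the starts of *Pqbp1* and *Timm17b*.

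*Klf1* (chr8:87425827-87429194, + strand), which encodes a zinc finger activator of the globin genes, lay whole in a region of 7080 bp, at the 82.7th percentile, that was in neither list. Its other region, chr8:87430806-87434505, 3700 bp, was in the H3K4me2-decreased list. That region began 4979 bp from the *Klf1* TSS, just inside the limit of 5 kb, and held a TSS of *Dnase2a*, an acid DNase gene that is known to work in the clearance of red cell nuclei. Of the 3 H3K4me2-decreased regions, those at *Hba-x* and near *Klf1* thus held the TSS of a neighbouring gene. Just outside the limit, the 2400 bp region 6295 bp from the *Epor* TSS and the 2940 bp region 9999 bp from the *Klf1* TSS were H3K4me2-decreased. The 14320 bp region 5312 bp from *Hbb-y* and all other regions added by a limit of 10 kb were not. At 10 kb the 10 genes had 37 regions, of which 5 were H3K4me2-decreased, against 1.87% of all merged regions.

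*Alas2* (chrX:146981918-147005181, + strand), which encodes the red cell form of the first enzyme of haem synthesis, had 6 regions. The widest, chrX:146981566-146988545, 6980 bp, held the first TSS and reached 6627 bp beyond it, and it was in the H3K4me2-decreased list. It was the only one of the 3 called regions that held the TSS of no other gene, although it also overlapped the annotated body of *Apex2*. The other 5 regions, of 60, 60, 1300, 160 and 1280 bp inside the gene, were in neither list. Only 0.805% of its words were repeated, so that nearly all of the gene is unique sequence.

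*Epor* (chr9:21763343-21768020, - strand), the receptor through which erythropoietin keeps red cell precursors alive, lay whole in a region of 6380 bp, at the 79.0th percentile, and had a second of 120 bp. Neither was in a decreased list. *Slc4a1* (chr11:102210138-102227517, - strand), which encodes band 3, the major anion exchanger of the red cell membrane, had 1 region of 21940 bp that covered 97.5% of its body, at the 99.1st percentile, and it was in neither list. Its width was close to that of the called region at *Hba-x*, and the part of width in the calls was not tested. The nearest H3K4me2-decreased region to *Slc4a1* was 38.1 kb away, at *Slc25a39*. None of the 10 genes had an H3K4me1-decreased region within 100 kb of its first TSS, a window that held 23 to 49 regions per gene. The closest was 110 kb from *Slc4a1*. As only 0.761% of all merged regions were in that list, and no share over all genes was computed for this window, the count does not set these genes apart.

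Other genes of the red cell had wide TSS regions as well. In 5 further lists (erythroid transcription factors, haem synthesis, iron handling, membrane and skeleton, and erythropoietin and KIT signalling) all 57 genes had a TSS in a region. For 30 of them (52.6%) a TSS lay in an H3K4me2-decreased region, against 29.2% of all genes with a TSS in a region and 2 of 9 among the 10 genes above. Of the 55 genes whose widest TSS region was at least 4000 bp, 30 (54.5%) had a TSS in an H3K4me2-decreased region of any width, against 39.4% of all such genes and 2 of 8 above. For *Slc25a38*, named after its values were seen, that decreased region was 1620 bp wide, narrower than its widest TSS region of 8760 bp. For H3K4me1 it was 1 of the 57, against 1.29% of all genes. Any H3K4me2-decreased region was found at 35 (61.4%), against 28.7% of all genes with a region, and any H3K4me1-decreased region at 5 (8.77%), which is near the 7.11% of all genes. A gene with more regions has more places for a call. The number of regions per gene reached 151 in these lists, against a median of 4 over all genes, and was not matched. By region, 3.73% to 12.9% per list were H3K4me2-decreased, against 1.87% of all merged regions. The 5 lists had median TSS region widths of 7520 to 12320 bp, against 3710 bp over all genes, and widths above 4000 bp were not matched. The lists were also chosen with earlier results of these data known, so these shares cannot be read as a property of red cell genes. Many of the 57 genes, such as those for ferritin and haem synthesis enzymes, are used in other cell types too, and the share of blood cells in each pool is unknown.

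**Figure D3:**
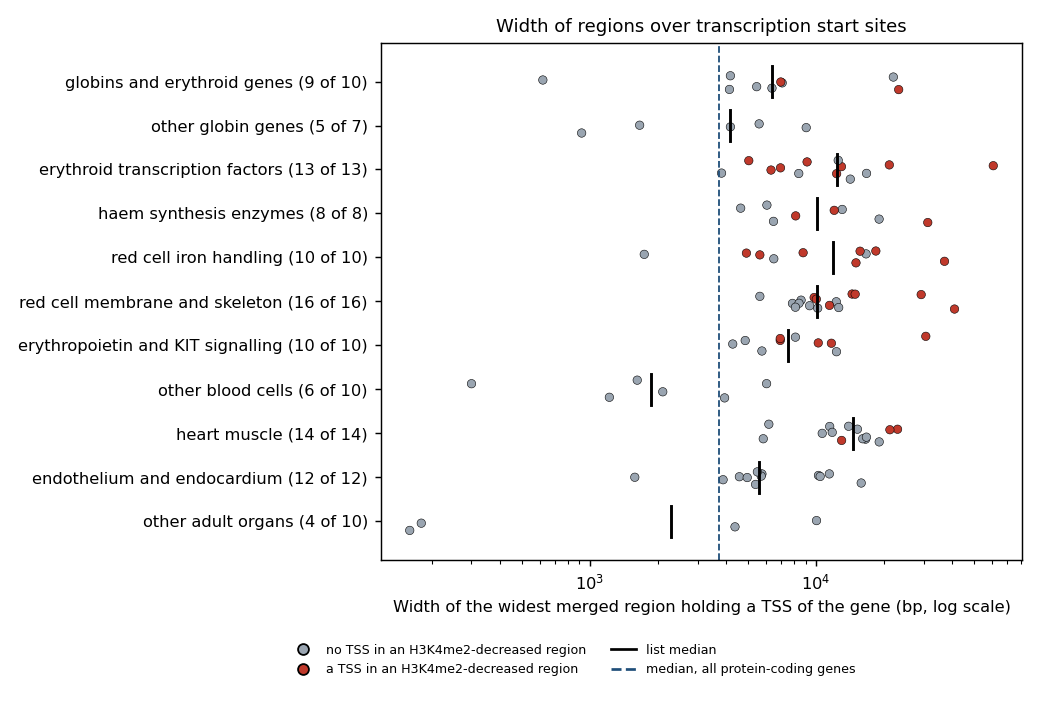
Width in bp (log axis) of the widest merged region holding a TSS of each gene, by gene list, with the number of genes that have such a region of those annotated. Points are genes (red, a TSS in an H3K4me2-decreased region), black bars are list medians, and the dashed line is the median of all protein-coding genes, 3710 bp; *Hbb-b1* at 620 bp is the leftmost point of the first row.

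The counts in the single lists are small and are to be read against 39.4%, the share of all genes with a TSS region of at least 4000 bp, as nearly all of the listed genes had a region this wide. Of 13 erythroid transcription factor genes, 8 had a TSS in an H3K4me2-decreased region. The widest were a region of 60640 bp at *Zfpm1*, which encodes the GATA1 partner FOG1, one of 21060 bp at *Tal1*, one of 12940 bp at *Nfe2* and one of 12320 bp at *Ldb1*. The region at *Ldb1* also held a TSS of *Pprc1*. *Tal1* and *Ldb1* encode members of the complex through which GATA1 acts on the globin genes. Of 8 haem synthesis genes 3 were called at a TSS, among them *Alad* in a region of 31140 bp that held the TSS of 3 other genes, and *Cpox* in one of 12020 bp. Of 10 iron handling genes 7 were, including *Slc25a37*, the mitochondrial iron importer (36920 bp), *Abcb10* (18360 bp) and the transferrin receptor gene *Tfrc* (5640 bp).

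Of 16 membrane and skeleton genes 7 were called at a TSS, including the ankyrin gene *Ank1* (40880 bp), *Epb4.1* (29120 bp), *Gypc* (14880 bp) and the spectrin gene *Sptb* (14420 bp, annotated as *Spnb1*). Of 10 genes of erythropoietin and KIT signalling 5 were, with the widest region at *Bcl2l1* (30520 bp), a survival gene, and others at *Socs3* (11680 bp) and *Jak2* (6940 bp), the kinase bound to the erythropoietin receptor. *Epor* itself was not called, and neither was the TSS of *Kit*. The shares of haem synthesis genes (3 of 8) and of membrane and skeleton genes (7 of 16) were near that of all genes.

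Of the other 7 globin genes of the clusters, 5 had a TSS in a region, with a median width of 4180 bp, and *Hba-a2* and the pseudogene *Hbb-bh3* had none. The 1 gene with an H3K4me2-decreased region was *Hbq1b* (14.3% of the 7, interval 2.57% to 51.3%), against 28.7% of all genes with a region. This was the region at *Hba-x* already counted above. None had an H3K4me1-decreased region, against 7.11% of all genes with a region. Counts this small do not set these genes apart.

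As a check of the tissue, all 14 heart muscle genes had a TSS in a region, with a median width of 14570 bp, as did all 12 genes of endothelium and endocardium (5610 bp), against 6 of 10 genes of other blood cells (1860 bp) and 4 of 10 genes of other adult organs (2280 bp). The regions at the 10 red cell genes thus stood beside regions of heart muscle and vessel genes in the same merged list, which does not show the library, mark or genotype behind a region. No gene of other blood cells, such as *Spi1*, *Itgam* or *Cd3e*, had a region in either decreased list, against 28.7% (H3K4me2) and 7.11% (H3K4me1) of all genes with a region, but only 1 of the 10 had a TSS region of at least 4000 bp. Of the 14 heart muscle genes, in which Cre is active, 5 had an H3K4me2-decreased region, near the share of all genes, with the widest at *Nkx2-5* (22900 bp) and *Pln* (21180 bp). An H3K4me1-decreased region was found at 3 (21.4%, interval 7.57% to 47.6%), against 7.11% of all genes with a region, with the widest at *Ryr2* (19000 bp). Of the 8 H3K4me1-decreased regions at these genes 6 lay at *Ryr2*, which had 123 regions. A TSS lay in an H3K4me2-decreased region for 3 of these 14, all with TSS regions of at least 4000 bp, against 39.4% of all genes with such regions. Of the 12 genes of endothelium and endocardium 2 had an H3K4me2-decreased and 1 an H3K4me1-decreased region, against 28.7% and 7.11% of all genes with a region. A TSS lay in an H3K4me2-decreased region for 0 of these 12. Of them 10 had a TSS region of at least 4000 bp, for which the share over all genes was 39.4%. The share of mutant heart cells that each list speaks for was not measured.

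**Figure D4:**
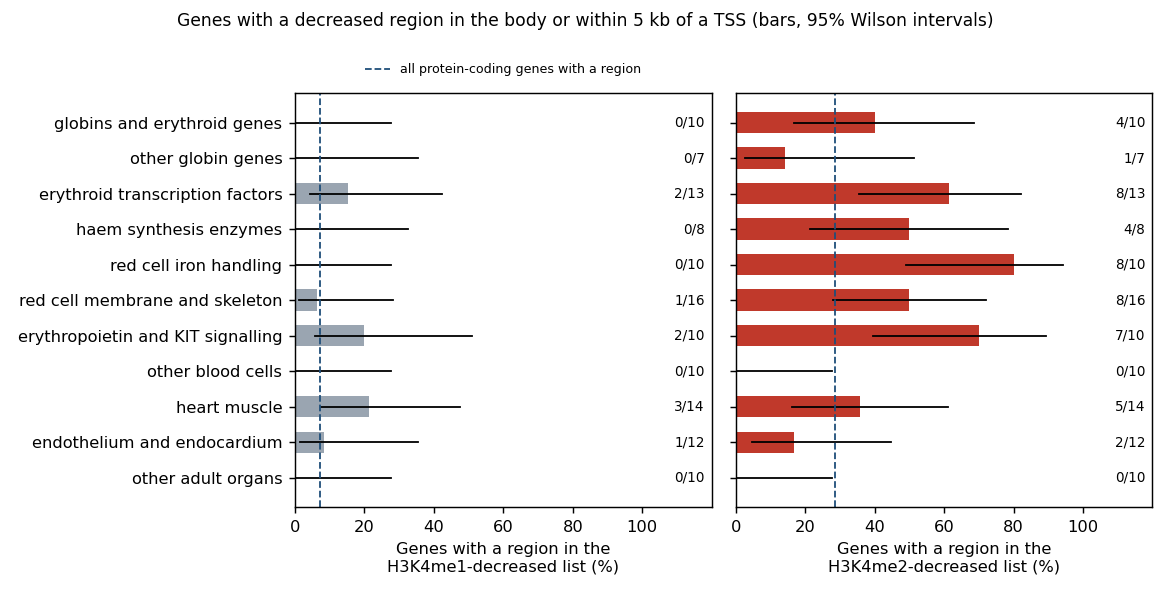
Percentage of genes in each list with 1 or more regions in the H3K4me1-decreased (left) and H3K4me2-decreased (right) list, with 95% Wilson intervals that treat genes as independent and the number of genes at the right edge. The dashed lines are the shares over all protein-coding genes with a region, 7.11% and 28.7%; the 10 globin and erythroid genes had 0 of 10 and 4 of 10.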

How the data were processed

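The series holds 27 libraries, of which 24 are from pooled hearts, and the groups were taken from the sample titles. The deposited files used here are 3 region lists made by the authors: merged H3K4me1, H3K4me2 and H3K4me3 peaks, and the regions of lower H3K4me1 and of lower H3K4me2 in mutant hearts, called below a false discovery rate of their choice. The submitters' processing notes name CASAVA 1.8.2, FastQC, Bowtie2, Bowtie and SAMtools with build mm9. The peak caller, the read filters and the test are not given in the sources used here. The lists give coordinates only, so the depth is unknown, no test over samples was possible, and 0 columns of per-sample values were left out. Coordinates are 1-based.

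Regions were assigned to GENCODE vM1 genes by overlap of at least 1 bp, and decreased regions were found by exact coordinates in the merged list. Shares have 95% Wilson intervals. Word counts and base composition were read from NCBIM37. Region assignment and word counting were tested on simulated data. Python 3.11.15 with numpy 2.4.6, pandas 2.3.3, scipy 1.17.1 and matplotlib 3.10.9 was used. The genes named were the 10 members with their regions, the nearest decreased regions, the genes of the globin clusters, and from each list up to 6 genes with the widest decreased region. A gene this rule chose is not reported here. *Kit*, *Spi1*, *Itgam* and *Cd3e* were named as examples of genes without a call after their values were seen. The members and lists were chosen with earlier results of these data known. The alternatives changed the TSS distance, the least width, the overlap rule, the transcripts, the cluster flank and the word length.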

Additional observations from a re-analysis of the deposited data

How the results depend on the processing

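The count of H3K4me2-decreased regions at the 10 genes was 3, with 5 at a TSS distance of 10 kb and 1 where most of a region (0.5 or more of its length) had to lie inside the gene or its windows. The covered length was 89488 bp, with 136897 bp at 10 kb and 47171 bp for gene bodies only. With regions of at least 1000 bp only, 14 of the 25 regions were left. In the alpha-globin cluster the 25 regions became 15 with a least width of 500 bp, 5 without flanks and 49 with flanks of 100 kb, where 2 rather than 1 were H3K4me2-decreased. The 22 regions of the beta-globin cluster became 9 with a least width of 500 bp and 10 without flanks. The other 46 alternative values, among them every count of H3K4me1-decreased regions (0) and the shares of repeated words at *Hba-a1* and *Hbb-b1* with 50-base words, stayed within 1.5 times the reported value. No paired analysis was possible because the lists hold no value per replicate, and for the same reason no replicate could be left out. A low or uneven depth at a narrow region such as those of *Hbb-b1* cannot be seen in coordinates, and the absence of a call there is not evidence of no change.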
